A study of Homo sapiens with 68 samples.

Results

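The 10 transcripts described here are host genes of small nucleolar RNAs (snoRNAs): GAS5, SNHG1, SNHG3, SNHG5, SNHG6, SNHG12, SNHG15, ZFAS1, NCL and EPB41L4A-AS1. They were chosen by gene identity, and a peak was counted when the Ensembl identifier in its name was that of a host. The peak lists of 68 libraries held 8188 such peaks of 15800601 in all, which is 0.0518%. NCL had 1701 of them, ZFAS1 1583, SNHG3 1107, GAS5 1096 and SNHG1 777. SNHG12 had 529, SNHG5 436, SNHG15 355, SNHG6 343 and EPB41L4A-AS1 261.

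A snoRNA host gene carries one or more snoRNAs in its introns. The spliced-out intron is trimmed down to the snoRNA, which is protected by its protein partners and guides the chemical modification of ribosomal or spliceosomal RNA, while the spliced exons form a separate product. Box C/D snoRNAs (SNORD genes) guide ribose methylation and box H/ACA snoRNAs (SNORA genes) guide pseudouridylation. Many hosts begin transcription at a terminal oligopyrimidine sequence, and the spliced RNA of several non-coding hosts is degraded quickly.

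The data are 68 libraries made by TLC-CLIP, a form of crosslinking and immunoprecipitation, in HEK293T, an established line from human embryonic kidney, and form 34 groups with 2 replicates each. The proteins were hnRNPA1, hnRNPc (hnRNP C1/2), hnRNPI (also known as PTBP1) and RBFOX2 (antibody named RBM9), all nuclear RNA-binding proteins that act in splicing. Tests used 32 libraries that the labels give as 50000 cells and 0.005 U of RNase. For each protein there were 2 crosslinked libraries with gel purification (PAGE, the excision of protein-RNA complexes from a gel; titled lowRNase), 2 crosslinked without it (noPAGE), 2 without ultraviolet crosslinking but with PAGE (noUV) and 2 without either (noUV_noPAGE). All cells are unmodified HEK293T, and the labels give no drug or genotype. The omission of crosslinking is taken from the titles, since every sample carries the same protocol text. The libraries without crosslinking belong to a separate run of accessions, so a difference between the runs and a difference between the treatments cannot be told apart. The labels do not say that replicates came from separate cultures, so p-values measure the spread between these libraries, which may be technical.

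The number of sequenced reads is unknown, and only listed peaks can be compared. Each peak name ends in a number, at least 4 for host peaks, that is called its read number here, although the files do not state its meaning. In this text the level of a gene is the sum of these read numbers over its peaks, scaled to a list total of 1000000 (RPM). Differences are on the scale of log2(level + 1), and a limma call is an adjusted p below 0.05. Among the 32 libraries, 5 of the 10 hosts had a peak in every one. The hnRNPc_50k_lowRNase replicate 1 list held 3268 peaks and stood apart from all others in length. It listed no peak in SNHG5, SNHG12, SNHG15, NCL or EPB41L4A-AS1.

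The first bases of the 7 non-coding hosts with a start window are shown, ordered by their leading pyrimidine run, because the oligopyrimidine start is the sequence feature that hosts are known for. They are from RefSeq (GRCh38.p14), read 5′ to 3′ along the transcript, and capitals mark the unbroken pyrimidine run at the start.
SNHG12: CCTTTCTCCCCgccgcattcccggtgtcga
SNHG5: CTTTTacgtcggccttcgcgagcgtctggg
ZFAS1: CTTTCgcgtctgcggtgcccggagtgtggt
SNHG1: CTCatttttctactgctcgtggtaagtggc
EPB41L4A-AS1: Tgtcgggtcccaaaatacgtggtctaaagt
GAS5: agatgtgtttattttggagcctacaccagc
SNHG3: gattctctaactgcgcatgcttctgcgcac
A run of at least 5 pyrimidines opened the start in 3 of the 8 hosts with a window, against 5.17% of 35116 windows of the same kind. Each of these hosts had 1 window, and any other start of the same gene was not read. In the first 50 bases, on the transcript strand only, TTTTT occurred in 2 of 8 hosts and in 3.72% of all windows, and TCTT in 3 of 8 and in 16.0%. TAGG occurred in 1 of 8 and in 10.1%, and GCATG in 1 of 8 and in 3.51%. No peak was placed on these bases, because the lists are on hg19 and builds were not mixed. SNHG6 and SNHG15 were not matched.

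The first comparison asks how the 4 proteins differ over the hosts. RBFOX2 gave the highest level of 9 of the 10 hosts in crosslinked libraries without PAGE. In the RBFOX2 lists the hosts held 1.74% and 1.54% of all read numbers and 0.104% and 0.0985% of peaks. The hosts held 0.155% ± 0.00796 (SD, n = 2) of read numbers with hnRNPA1, 0.194% ± 0.00223 with hnRNPc and 0.149% ± 0.0192 with hnRNPI. The share of peaks was 0.0325% ± 0.00328 with hnRNPA1, 0.0385% ± 0.000655 with hnRNPc and 0.0349% ± 0.000204 with hnRNPI. The RBFOX2 lists were the shortest of these, at 157375 and 161434 peaks against 341973 to 523402. Over the 8 libraries the log2 share of peaks had a range of 1.64 between proteins. The exact permutation test of the between-protein sum of squares gave p = 0.0190 (adjusted p = 0.0762 over 12 exact tests), which did not pass after adjustment. The smallest p that 4 proteins of 2 libraries allow is 0.00952.

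Gene by gene, limma over 15396 genes called 9 of 10 hosts higher with RBFOX2 than with the mean of the other proteins, where 15.4% of all genes were called higher. It called 0 hosts lower, where 36.8% of all genes were called lower, and 0 at an unadjusted p below 0.05. The median log2 difference was 3.82 over the hosts and −1.08 over all genes. The call of EPB41L4A-AS1 was lost when any of 6 of the 32 libraries was left out, and its adjusted p was 0.125 when peaks less than 30 nt apart were joined. Leaving out each library in turn gave 7 to 9 hosts called.

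**Figure D1:**
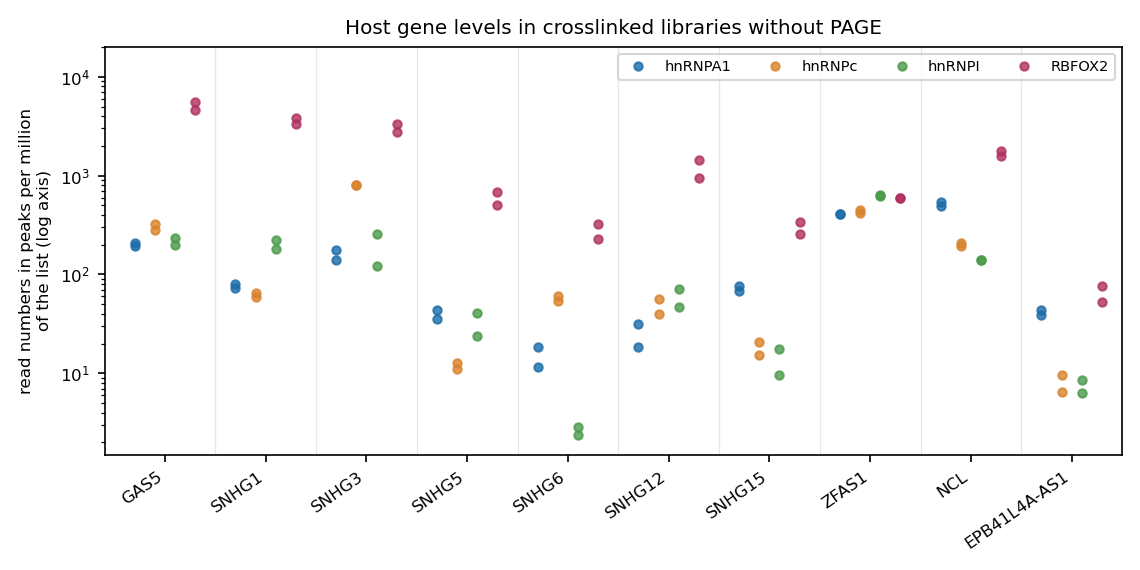
Level of each host (read numbers in its peaks RPM of the list, log axis) in the 8 crosslinked libraries without PAGE, with 1 point per library and 1 colour per protein. The RBFOX2 points lie above all others for 9 hosts, and for ZFAS1 the hnRNPI points, 635 and 624, lie just above the RBFOX2 points at 587.

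The hosts whose listed snoRNAs are mainly or only box C/D are described first; RefSeq lists 1 H/ACA snoRNA, SNORA103, in GAS5. GAS5 (ENSG00000234741, peaks at chr1:173833117-173837056, hg19, minus strand) is a growth-arrest associated non-coding RNA with the most snoRNAs of the set. Its level was 5532 and 4561 RPM with RBFOX2, 321 and 284 with hnRNPc, 231 and 200.2 with hnRNPI, and 209.6 and 195 with hnRNPA1. Both RBFOX2 libraries lay above all others, and hnRNPI and hnRNPA1 overlapped. The RBFOX2 difference was 4.41 on the log2 scale (SE 0.433, limma adjusted p = 1.21e-07), the hnRNPA1 difference −1.77 (SE 0.433, adjusted p = 0.0137) and the hnRNPI difference −1.64 (SE 0.433, adjusted p = 0.00703). Here and for the hosts below, each difference is from the mean of the other proteins, which for hnRNPA1, hnRNPc and hnRNPI includes RBFOX2.

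SNHG1 (ENSG00000255717, peaks at chr11:62619500-62623356, minus strand) hosts a run of box C/D snoRNAs. Its level was 3845 and 3314 RPM with RBFOX2, 222 and 183 with hnRNPI, 80.1 and 72.6 with hnRNPA1, and 59.0 and 64.9 with hnRNPc. No neighbours in this order overlapped. SNHG1 had the largest RBFOX2 difference of the hosts, 5.17 on the log2 scale (SE 0.271, limma adjusted p = 3.37e-11). It was also lower than the mean of the other proteins with hnRNPA1, by a log2 difference of −2.21 (SE 0.271), and with hnRNPc, −2.60 (SE 0.271), with adjusted p of 2.74e-05 and 4.22e-06.

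SNHG5 (ENSG00000203875, peaks at chr6:86371255-86388453, minus strand) was at 682 and 508 RPM with RBFOX2, 35.3 and 43.2 with hnRNPA1, 40.7 and 23.9 with hnRNPI, and 12.7 and 11.1 with hnRNPc. The hnRNPA1 and hnRNPI values overlapped, and the hnRNPc values lay below them. RBFOX2 differed by 4.53 (SE 0.720, limma adjusted p = 4.55e-05) and the hnRNPc difference −2.83 (SE 0.720, adjusted p = 0.0106).

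SNHG6 (ENSG00000245910, peaks at chr8:67834100-67837778, minus strand) was at 322 and 229 RPM with RBFOX2, 61.0 and 53.9 with hnRNPc, 11.6 and 18.5 with hnRNPA1, and 2.86 and 2.37 with hnRNPI. All 4 proteins were separate, and hnRNPI listed 1 peak there in each library. The hnRNPI difference of −4.13 (SE 0.575, limma adjusted p = 2.61e-05) was the largest downward difference of any host in this comparison.

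ZFAS1 (ENSG00000177410, peaks at chr20:47895242-47905577, plus strand), transcribed from the antisense side of the ZNFX1 promoter, was the exception to the RBFOX2 order. It was at 635 and 624 RPM with hnRNPI, 587 and 587 with RBFOX2, 418 and 444 with hnRNPc, and 409.9 and 409 with hnRNPA1. The log2 differences were small, 0.42 (SE 0.336) for hnRNPI and 0.29 (SE 0.336) for RBFOX2, and none of the 4 protein contrasts called ZFAS1.

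The hosts of H/ACA snoRNAs alone or of both classes follow. SNHG3 (ENSG00000242125, peaks at chr1:28832554-28837328, plus strand) hosts the near-identical pair SNORA73A and SNORA73B, between which the authors' alignment could have split reads. Its level was 2785 and 3332 RPM with RBFOX2, 794 and 805 with hnRNPc, 257 and 121 with hnRNPI, and 175 and 138 with hnRNPA1. The hnRNPc libraries were second and did not overlap with hnRNPI or hnRNPA1, which overlapped each other. RBFOX2 stood 3.44 above the mean of the others (SE 0.378, limma adjusted p = 5.24e-07).

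SNHG12 (ENSG00000197989, peaks at chr1:28905073-28907994, minus strand), a host of both snoRNA classes, was at 1428 and 939 RPM with RBFOX2, 71.4 and 47.1 with hnRNPI, 39.9 and 56.4 with hnRNPc, and 31.5 and 18.3 with hnRNPA1. The difference for RBFOX2 was 4.80 (SE 0.793, limma adjusted p = 6.80e-05). The hnRNPA1 difference of −2.57 (SE 0.793) did not pass, with an adjusted p of 0.0522.

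SNHG15 (ENSG00000232956, peaks at chr7:45022846-45026142, minus strand), host of SNORA9, was at 336 and 254 RPM with RBFOX2, 76.2 and 68.7 with hnRNPA1, 15.2 and 20.9 with hnRNPc, and 17.6 and 9.70 with hnRNPI. The hnRNPc and hnRNPI values overlapped. The RBFOX2 difference was 3.45 (SE 0.758, limma adjusted p = 0.00108) and the hnRNPI difference −2.39 (SE 0.758, adjusted p = 0.0216). The latter call was lost when peaks less than 30 nt apart were joined (limma adjusted p = 0.0588).

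NCL (ENSG00000115053, peaks at chr2:232318366-232329207, minus strand) encodes nucleolin, an abundant nucleolar protein, and is the coding host of the set. It was at 1778 and 1585 RPM with RBFOX2, 535 and 494 with hnRNPA1, 193 and 209 with hnRNPc, and 141 and 139 with hnRNPI, with no overlap between neighbours. For RBFOX2 the difference was 2.78 (SE 0.979, limma adjusted p = 0.0235). That call was lost when either replicate of RBFOX2_50k_noPAGE was left out, with a highest limma adjusted p of 0.128.

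EPB41L4A-AS1 (ENSG00000224032, peaks at chr5:111496568-111499816, plus strand), host of SNORA13, had the lowest level of the set with RBFOX2 and hnRNPc. With hnRNPI SNHG6 was lower, and with hnRNPA1 SNHG6 and SNHG12 were. The hnRNPA1 mean of SNHG5 was also lower, 39.2 against 41.1, with overlapping libraries. EPB41L4A-AS1 was at 75.6 and 53.0 RPM with RBFOX2, 43.6 and 38.7 with hnRNPA1, 9.60 and 6.51 with hnRNPc, and 8.48 and 6.31 with hnRNPI. RBFOX2 differed from the others by 2.14 (SE 0.834, limma adjusted p = 0.0378).

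For the other proteins, limma called 0 hosts higher with hnRNPA1 (4.48% of all genes) and 3 lower (2.85%), with 0 and 5 at an unadjusted p below 0.05. With hnRNPc it called 0 higher (7.4%) and 2 lower (6.91%), with 2 (SNHG3 and SNHG6) and 4 unadjusted. With hnRNPI it called 0 higher (14.2%) and 4 lower (15.3%), with 0 and 5 unadjusted. The hosts' median log2 differences were −0.97, −1.30 and −1.72, against 0.46, 0.41 and 0.21 over all genes. With peaks less than 30 nt apart joined, the SNHG3 call for hnRNPA1 was lost (−1.10, limma adjusted p = 0.228) and GAS5 was called lower with hnRNPc (−1.81, adjusted p = 0.00958). These 4 contrasts share libraries, since each protein is set against the mean of the others. For hnRNPA1, hnRNPc and hnRNPI that mean includes RBFOX2, which had the highest level in every host but ZFAS1. A lower call thus does not by itself show a difference among hnRNPA1, hnRNPc and hnRNPI. Without hnRNPc_50k_lowRNase replicate 1, the counts called were 5 for hnRNPA1, 9 for hnRNPc and 8 for hnRNPI, and they were the same without replicate 2 of that group. Without either hnRNPc_50k_noPAGE replicate the hnRNPc count was 1, and without either hnRNPI_50k_noPAGE replicate the hnRNPI count was 2.

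The second comparison sets narrow peaks, at most 30 nt, against wide ones. In RBFOX2 libraries without PAGE, 66.5% and 66.0% of host peaks were narrow, against 18.3% and 18.5% of all other peaks of the same lists. The median host peak was 16 and 19 nt wide, against 59 nt elsewhere in both. With hnRNPI, 37.9% and 34.5% of host peaks were narrow, with hnRNPc 21.4% and 23.9%, and with hnRNPA1 23.0% and 13.3%. Other peaks of those lists were narrow in 12.0% to 17.1%. Over proteins the mean percent ranged over 48.1 points (exact permutation of the between-protein sum of squares, p = 0.0190, adjusted p = 0.0762), against 6.28 points for other peaks. With PAGE the means were 54.1% for RBFOX2, 23.9% for hnRNPA1, 16.6% for hnRNPI and 13.8% for hnRNPc. Their range was 40.3 points (p = 0.0381 by the same exact permutation test, adjusted p = 0.0914). Neither passed after adjustment. When peaks less than 30 nt apart were joined, the ranges were 11.4 points without PAGE and 14.0 with PAGE, so most of the range lay in peaks that touch or nearly touch another.

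**Figure D2:**
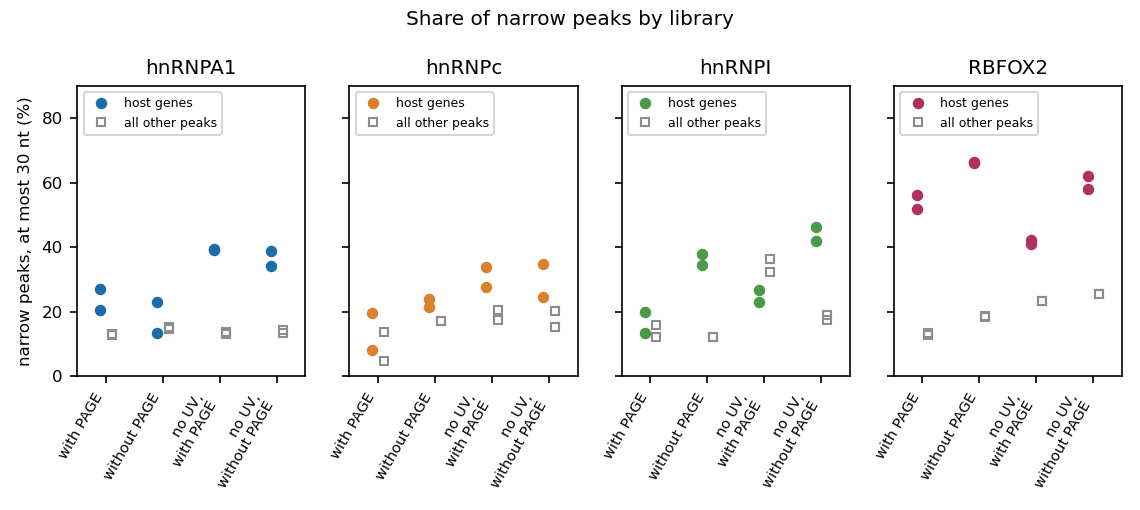
Percent of peaks that are at most 30 nt wide, for peaks in the 10 hosts (filled points) and all other peaks of the same library (open squares), with 1 point per library in 4 conditions for each protein. RBFOX2 host points lie at 40.9% or higher in every condition, and its other peaks at 25.6% or lower.

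Narrow and wide host peaks also had different read numbers, with a sign that went by protein, a difference that was not tested. In RBFOX2 libraries without PAGE the median read number was 851 and 843 for narrow host peaks and 446 and 435.5 for wide ones. In the 6 libraries of the other proteins it was 35 to 67 for narrow and 62.5 to 121 for wide host peaks, so narrow ones had fewer reads in each of them. The log2 ratio of narrow over wide was 0.94 for RBFOX2, −0.68 for hnRNPI, −0.55 for hnRNPA1 and −0.74 for hnRNPc. Other peaks had ratios of −0.29, −0.95, −0.78 and −0.78 in that order of proteins. Averaged over the 8 libraries the host ratio was −0.26 (exact sign-flip permutation p = 0.367, adjusted p = 0.401), and with PAGE it was −0.44 (p = 0.188 by the same exact test, adjusted p = 0.225). Narrow peaks carried 70.1% and 69.5% of the host read numbers with RBFOX2, against 9.59% to 29.4% with the other proteins.

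By host, SNHG1 had the highest share of narrow peaks with RBFOX2 without PAGE, 53 of 62 over both libraries (85.5%). SNHG3 had 32 of 41 (78.0%), SNHG5 11 of 15 (73.3%), SNHG6 5 of 7 (71.4%), GAS5 36 of 51 (70.6%) and SNHG12 22 of 32 (68.8%). NCL had 29 of 52 (55.8%), ZFAS1 15 of 34 (44.1%), EPB41L4A-AS1 5 of 13 (38.5%) and SNHG15 6 of 16 (37.5%). With hnRNPc, the same SNHG1 had 1 narrow peak of 21 (4.76%). These shares pool the peaks of 2 libraries and are descriptions.

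The narrow RBFOX2 peaks stood side by side. Of the narrow host peaks, 97.2% and 95.2% touched another host peak without PAGE, against 38.1% to 76.6% in the other proteins' libraries. A block is a run of touching peaks. Blocks of at least 2 peaks in both RBFOX2 replicates numbered 36, with a median length of 80 nt, and 24 of them were 60 to 100 nt long. RefSeq lists 37 snoRNAs inside the 10 hosts, with a median length of 77 nt, of which 26 are 60 to 100 nt. RefSeq was used here for names, lengths and nesting only. No block was assigned to a snoRNA by position, because the builds differ. Touching peaks can count the same reads, so a gene's summed level can hold a read more than once.

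Block and snoRNA lengths are given side by side for each host, as a description. GAS5 had 8 blocks of 62 to 81 nt and 11 snoRNAs of 60 to 86 nt. SNHG1 had 7 blocks of 68 to 86 nt and 9 listed snoRNAs of 65 to 126 nt. SNHG3 had 2 blocks of 210 nt each, beside SNORA73A at 207 nt and SNORA73B at 205 nt. SNHG15 had 1 block of 137 nt and EPB41L4A-AS1 1 of 138 nt, beside SNORA9 and SNORA13 at 133 nt each. SNHG5 had 2 blocks of 74 and 76 nt with snoRNAs of 71 and 75 nt, and SNHG6 1 block of 83 nt with SNORD87 at 76 nt. ZFAS1 had 3 blocks of 79 to 85 nt with 3 snoRNAs of 79 to 103 nt, and SNHG12 had 3 blocks of 74 to 131 nt with 4 snoRNAs of 80 to 134 nt. NCL differed, with 8 blocks of 71 to 248 nt and 3 snoRNAs of 75 to 137 nt.

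**Figure D3:**
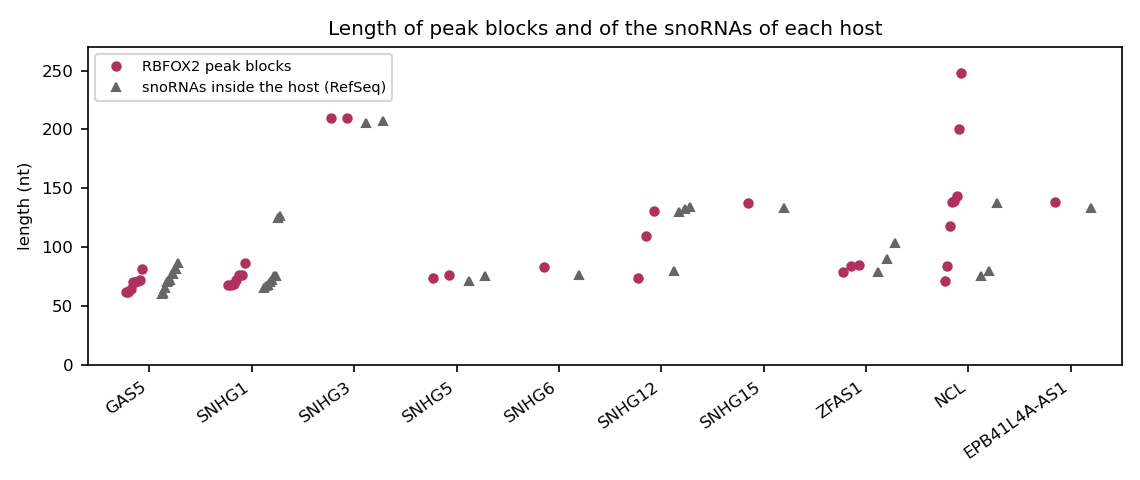
Length in nt of the 36 RBFOX2 blocks (circles) and of the 37 snoRNAs that RefSeq places inside the same host (triangles), by host. Both sets lie near 210 nt in SNHG3 and near 135 nt in SNHG15 and EPB41L4A-AS1, while NCL blocks reach 248 nt.

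The blocks held most of the RBFOX2 signal. They took 92.9% and 95.6% of the RBFOX2 host read numbers without PAGE, the libraries that defined them. In RBFOX2 libraries that did not define them they took 88.6% and 90.5% (with PAGE) and 95.9% and 94.9% (with RecJ, an added exonuclease digestion). The same intervals held 64.6% and 55.4% of host read numbers with hnRNPI, 32.9% and 31.0% with hnRNPA1 and 13.0% and 15.3% with hnRNPc, all without PAGE. Of the 36 blocks, both libraries listed a peak in 32 with hnRNPI, 23 with hnRNPA1 and 21 with hnRNPc. More than 1 peak stood in 18, 6 and 5 of them.

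Single sites show where the proteins differ within a host. A site joins the short inner intervals that the lists give within peaks, over all libraries, where they lie less than 10 nt apart, and the top site has the highest lower read number of the 2 noPAGE libraries. Read numbers of different proteins are not scaled to each other. In SNHG1 the RBFOX2 top site was chr11:62622765-62622838 (2350 and 2401 reads), the hnRNPI top site chr11:62622485-62622555 (726 and 671), and hnRNPA1 and hnRNPc shared chr11:62621813-62621845 (130 and 143 with hnRNPA1, 80 and 98 with hnRNPc). The shared site of the latter lay outside the RBFOX2 blocks, and its peaks were 117 to 199 nt wide. In GAS5 the RBFOX2 top site was chr1:173833506-173833584 (4615 and 4791 reads), which lay in none of the 8 GAS5 blocks. This site lay in a run of touching peaks in replicate 1 and in a single 80 nt peak in replicate 2. A block needs at least 2 peaks in both replicates. In the same host hnRNPc and hnRNPI shared chr1:173833940-173834056 (285 and 358 with hnRNPc, 256 and 195 with hnRNPI), and the hnRNPA1 top site was chr1:173834488-173834566 (394 and 386).

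In 3 hosts, 3 proteins shared the top site. In SNHG5 it was chr6:86387045-86387084, with 1308 and 1326 reads for RBFOX2, 107 and 53 for hnRNPI and 37 and 28 for hnRNPc. In SNHG6 it was chr8:67834712-67834785, with 851 and 900 reads for RBFOX2, 36 and 43 for hnRNPA1 and 28 and 21 for hnRNPI. In SNHG15 it was chr7:45024976-45025108, with 962 and 930 reads for RBFOX2, 108 and 70 for hnRNPI and 27 and 29 for hnRNPc. Each of these lay in an RBFOX2 block. In NCL, RBFOX2 and hnRNPI shared chr2:232321155-232321233 (3411 and 3531, and 196 and 120 reads), while hnRNPA1 and hnRNPc shared chr2:232326371-232326460 (738 and 740, and 142 and 176).

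The third comparison asks what the omission of PAGE does. No host was called in the mean over proteins, and for 3 hosts the effect differed between proteins. The log2 share of peaks differed by −0.40 (exact permutation p = 0.816, adjusted p = 0.816). By protein it was 0.49 for RBFOX2, 0.38 for hnRNPI, −0.01 for hnRNPA1 and −2.47 for hnRNPc. The hnRNPc value rests on the short list, in which hosts held 0.765% of peaks against 0.0596% in its replicate. Without that library the mean was 0.058. The percent of narrow host peaks was 8.73 points higher without PAGE (exact permutation p = 0.0293, adjusted p = 0.0880), with 19.6 for hnRNPI, 12.2 for RBFOX2, 8.91 for hnRNPc and −5.76 for hnRNPA1. For other peaks it was 3.33 points higher.

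Gene by gene, limma called 0 hosts higher without PAGE (0.903% of all genes) and 0 lower (0.676%). At an unadjusted p below 0.05 there were 3 higher (SNHG5, SNHG12 and NCL) and 1 lower (SNHG1). NCL had the largest mean difference, 1.94 (SE 0.599, limma adjusted p = 0.135), and SNHG5 the smallest adjusted p, 0.0568, with a difference of 1.69 (SE 0.441). By protein, the NCL difference was 3.92 with hnRNPc and 1.03 to 1.67 with the others. The short hnRNPc list with PAGE held no NCL peak. Leaving out 1 library gave mean differences of 1.00 to 2.87 for NCL and 1.21 to 2.17 for SNHG5. The median was 0.44 over the hosts and 0.10 over all genes. In simulated data this contrast recovered 12% of genes with a log2 change of 1 and 54% of those with 2. A host that was not called is thus not shown to be unchanged. Without hnRNPc_50k_lowRNase replicate 1, 3 hosts were called, without its replicate 2, 8, and without either noUV_hnRNPI replicate, 1.

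The PAGE effect differed between proteins for 3 of 10 hosts, where 5.13% of all genes passed the same interaction test. These were GAS5, SNHG1 and ZFAS1 (limma interaction adjusted p = 0.00904, 0.00799 and 0.0268). With RBFOX2, GAS5 went from 1844 and 1835 RPM with PAGE to 5532 and 4561 without, and SNHG1 from 1588 and 1399 to 3845 and 3314. With hnRNPI, GAS5 went from 37.2 and 52.9 to 231 and 200.2, whereas SNHG1 went from 646 and 337 to 222 and 183. With hnRNPA1, GAS5 was at 233 and 237 with PAGE and 209.6 and 195 without, and SNHG1 at 133 and 114 against 80.1 and 72.6. Part of the hnRNPc difference in these hosts rests on the short list, with GAS5 at 2431 and 417 with PAGE. With RBFOX2 the difference was above 0 for all 10 hosts, from 0.03 (SNHG3) to 2.86 (SNHG5) on the log2 scale, with an SE of 0.463 and 0.882.

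**Figure D4:**
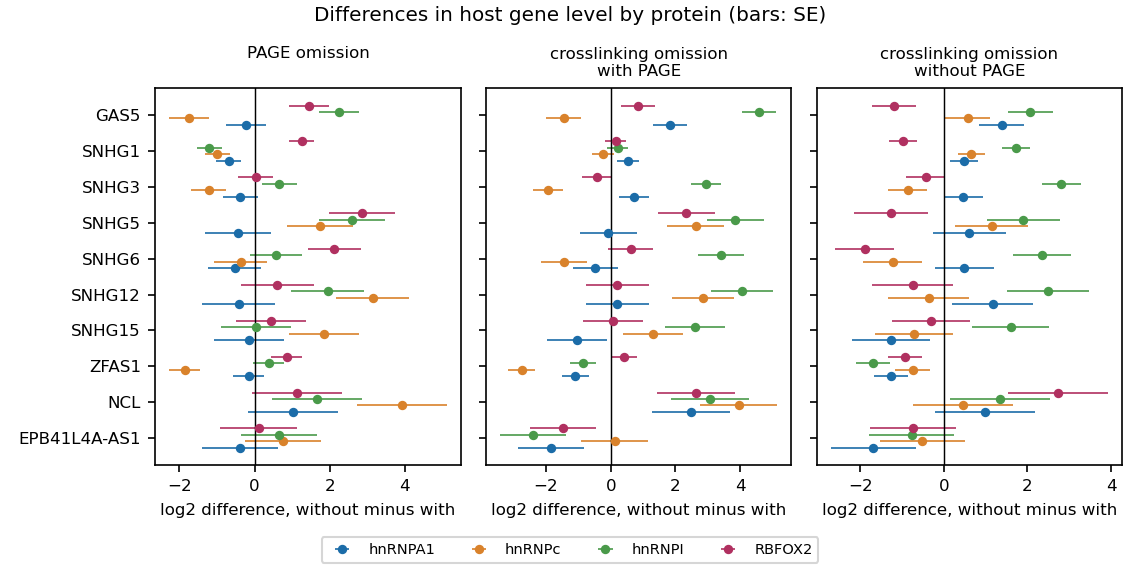
Difference of each host's level on the log2 scale, without minus with PAGE (left) and without minus with crosslinking (middle, with PAGE; right, without PAGE), with 1 point per protein and bars of 1 SE from the limma fit. In the right panel the hnRNPI points reach 2.81 (SNHG3) and the RBFOX2 points lie below 0 for every host but NCL, at 2.73.

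The fourth comparison asks which host signal remains without crosslinking. Hosts took a larger share of the peaks when crosslinking was omitted. Without PAGE the log2 share was 1.32 higher (2.49-fold, exact permutation p = 0.00154, the smallest the design allows, adjusted p = 0.0185), and it was higher in 4 of 4 proteins. The difference was 2.10 for hnRNPI, 1.39 for RBFOX2, 1.09 for hnRNPA1 and 0.69 for hnRNPc. The libraries without crosslinking had 44086 to 278452 peaks here, against 157375 to 523402 with it. The mean number of host peaks was lower without crosslinking for each protein. It was 130 beside 166 for hnRNPA1, 145 beside 176 for hnRNPc, 88.5 beside 121.5 for hnRNPI and 151 beside 161.5 for RBFOX2. The part that list length plays was not tested. The share of host read numbers was then 1.91% ± 0.166 (SD, n = 2) for RBFOX2, beside 1.64% ± 0.142 with crosslinking. It was 0.392% ± 0.0659 beside 0.149% for hnRNPI, 0.222% ± 0.0231 beside 0.155% for hnRNPA1, and 0.164% ± 0.0148 beside 0.194% for hnRNPc. The higher RBFOX2 share rested on NCL, at a mean of 11196 RPM without crosslinking beside 1682 with it. The mean RBFOX2 level of each other host was lower without crosslinking. With PAGE the log2 share of peaks was 1.19 higher (exact permutation p = 0.145, adjusted p = 0.203). It was 1.65 without hnRNPc_50k_lowRNase replicate 1, with an exact permutation p of 0.00772 before adjustment.

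In the mean over proteins, omitting crosslinking with PAGE gave 4 hosts higher (7.22% of all genes) and 2 lower (25.9%). GAS5 rose by 1.45 on the log2 scale (SE 0.265, limma adjusted p = 0.000300), SNHG5 by 2.19 (SE 0.441), SNHG12 by 1.83 (SE 0.486) and NCL by 3.04 (SE 0.599, adjusted p = 0.000600). The short crosslinked hnRNPc list with PAGE held no peak of SNHG5, SNHG12 or NCL. Leaving out 1 library gave 1.13 to 1.77 for GAS5, 1.70 to 2.67 for SNHG5, 1.22 to 2.44 for SNHG12 and 2.11 to 3.97 for NCL. ZFAS1 differed by −1.07 (SE 0.206, adjusted p = 0.000464) and EPB41L4A-AS1 by −1.41 (SE 0.511, adjusted p = 0.0391). Without PAGE, GAS5 and SNHG1 were called higher (6.55% of all genes) and ZFAS1 lower (28.9%). Their log2 differences were 0.71 (SE 0.265), 0.47 (SE 0.166) and −1.16 (SE 0.206), with limma adjusted p of 0.0428, 0.0323 and 0.000308. The calls of GAS5 and SNHG1 were lost in some of the fits that left out 1 library. Over those fits the differences were 0.63 to 0.79 for GAS5 and 0.43 to 0.51 for SNHG1. The ZFAS1 call was kept in each of them. The hosts' medians were 0.63 with PAGE and 0.48 without, against −0.54 and −0.57 over all genes.

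The calls of ZFAS1 and EPB41L4A-AS1 did not hold when peaks less than 30 nt apart were joined. ZFAS1 was then at −0.47 with PAGE (limma adjusted p = 0.131) and −0.20 without (adjusted p = 0.534), and EPB41L4A-AS1 at −1.16 (adjusted p = 0.0905). The latter was called in 22 of the 32 fits that leave out 1 library. SNHG1 with PAGE, not called otherwise, was then called higher (0.92, limma adjusted p = 0.000310). Without PAGE, 7 hosts were called when either hnRNPc_50k_lowRNase replicate was left out. Only 1 was called when hnRNPA1_50k_noPAGE replicate 2, hnRNPc_50k_noPAGE replicate 1, hnRNPI_50k_noPAGE replicate 2, noUV_noPAGE_hnRNPA1 replicate 1, noUV_noPAGE_hnRNPc replicate 2, noUV_noPAGE_hnRNPI replicate 1, or either replicate of RBFOX2_50k_noPAGE or noUV_noPAGE_RBFOX2 was left out.

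The effect of omitting crosslinking differed between proteins for 5 hosts with PAGE, where 62.9% of all genes passed the interaction test, and for 4 without PAGE, where 20.0% did. Without PAGE, SNHG3 went with hnRNPI from 257 and 121 RPM crosslinked to 1405 and 1099 without crosslinking, and with hnRNPc from 794 and 805 to 422 and 454 (limma interaction adjusted p = 0.00159). SNHG1 went with hnRNPI from 222 and 183 to 749 and 592, and with RBFOX2 from 3845 and 3314 to 1764 and 1857 (adjusted p = 0.00264). GAS5 went with hnRNPI from 231 and 200.2 to 1013 and 812, and with RBFOX2 from 5532 and 4561 to 1936 and 2517 (adjusted p = 0.0169). SNHG6 went with hnRNPI from 2.86 and 2.37 to 24.2 and 12.4, and with RBFOX2 from 322 and 229 to 61.2 and 85.0 (adjusted p = 0.0149). In each of these cases the crosslinked and uncrosslinked libraries did not overlap. The hnRNPI lists shortened by the largest fold of the 4 proteins, from 353415 and 341973 to 44086 and 78945 peaks.

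The blocks were still listed without crosslinking. Of the 36, both noUV_noPAGE libraries listed a peak in 35 with RBFOX2, 35 with hnRNPI, 34 with hnRNPA1 and 26 with hnRNPc. In the hnRNPI libraries without crosslinking the blocks held 95.8% and 95.9% of host read numbers, against 64.6% and 55.4% with it, and with hnRNPA1 53.7% and 52.0% against 32.9% and 31.0%. With hnRNPc they held 35.8% and 40.0% against 13.0% and 15.3%. With RBFOX2 the share was 81.2% in both libraries, below the 92.9% and 95.6% of the libraries that defined the blocks.

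The percent of narrow host peaks differed in direction between RBFOX2 and the others, and that difference was not tested. It was 6.74 points higher without crosslinking when PAGE was omitted (exact permutation p = 0.0664, adjusted p = 0.133) and 7.04 points higher with PAGE (exact permutation p = 0.100, adjusted p = 0.172), so neither mean passed. Without PAGE it was −6.30 points for RBFOX2, 7.83 for hnRNPI, 18.4 for hnRNPA1 and 7.06 for hnRNPc. With PAGE it was −12.5, 8.29, 15.4 and 17.0 in the same order. For other peaks the mean difference was 3.19 points without PAGE and 10.2 with PAGE.

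NCL stood apart from the non-coding hosts in RBFOX2 libraries without PAGE. Without PAGE its level was 1778 and 1585 RPM with crosslinking and 10059 and 12333 without, from 26 peaks in each crosslinked library and 66 and 72 in the others. With PAGE it was 992 and 591 with crosslinking and 4816 and 4733 without. The log2 difference for RBFOX2 alone was 2.73 without PAGE (SE 1.20), and negative for each other host. With PAGE it was 2.64 (SE 1.20), beside 2.34 (SE 0.882) for SNHG5, so NCL did not stand apart there. Without PAGE the NCL level went with hnRNPA1 from 535 and 494 to 1050.4 and 979.5. With hnRNPI it went from 141 and 139 to 375 and 339, and with hnRNPc from 193 and 209 to 293 and 259. Averaged over proteins the NCL difference was 1.38 without PAGE (SE 0.599, limma adjusted p = 0.0787), which did not pass, and the test of a difference between proteins gave an adjusted p of 0.726. Both tests use the spread within all 16 groups. The crosslinked hnRNPc group with PAGE, outside this comparison, had NCL at 88.0 RPM ± 124 (SD, n = 2). Its list of 3268 peaks held no NCL peak. Leaving out 1 library gave NCL differences of 1.34 to 1.41.

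Within NCL the scaled read numbers of the RBFOX2 blocks were different with and without crosslinking. The top read number of each RBFOX2 block was scaled to its list, since the lists held 9131893 and 9713147 read numbers with crosslinking and 1682924 and 2094259 without. Of the 36 blocks, 19 were lower in both libraries without crosslinking, 13 were higher in both and 4 overlapped. NCL had 5 of its 8 blocks higher, and the other hosts had 8 of 28 higher and 16 lower. In the NCL block chr2:232329047-232329189, the most upstream, the value was 21.1 and 17.9 RPM with crosslinking and 405 and 414 without, and in the block chr2:232326530-232326729 it was 18.7 and 21.3 against 327 and 398. In the block chr2:232321154-232321237, 84 nt long, it was 374 and 364 against 95.7 and 151, and in chr2:232325081-232325151, 71 nt long, 169.7 and 159.6 against 86.8 and 104. SNHG1 had 4 blocks lower and 3 higher, the latter by less, as in chr11:62620798-62620866 with 78.0 and 75.6 RPM against 94.5 and 94.1. The blocks were chosen as high in crosslinked RBFOX2 lists, so these values carry no test. Unscaled, 31 blocks were lower and 5 higher. Of the NCL peaks, 29 of 52 were narrow with crosslinking and 90 of 138 without.

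**Figure D5:**
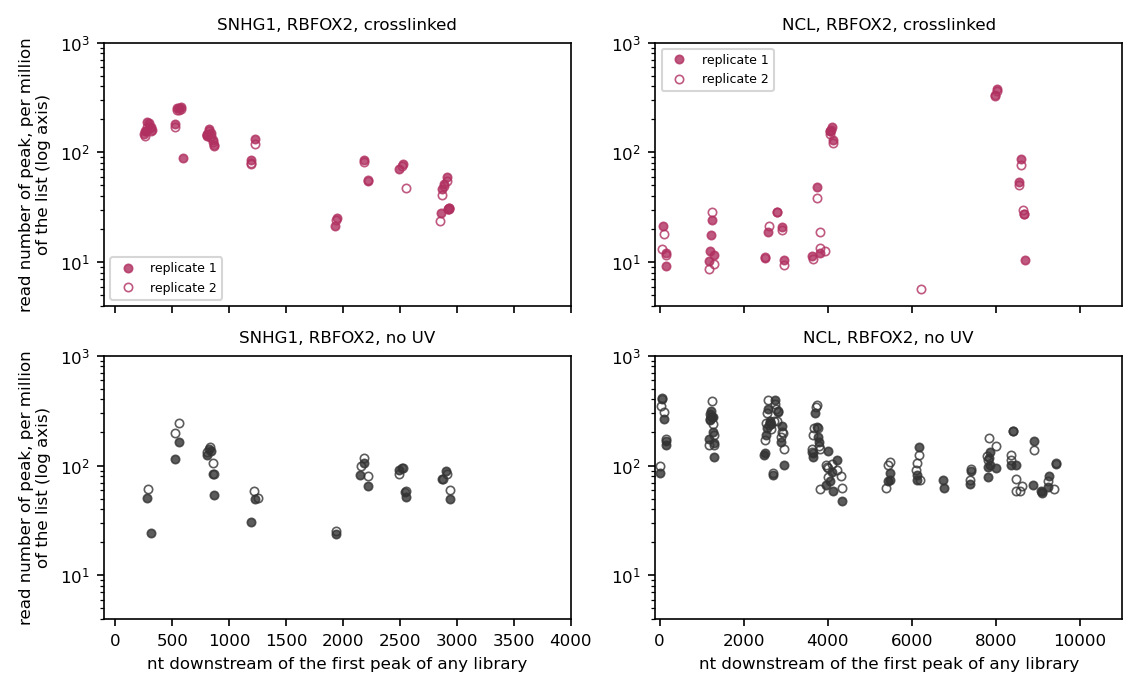
Read number of each RBFOX2 peak scaled to its list (RPM, log axis) against its distance in nt from the first peak of any library along SNHG1 (left) and NCL (right), without PAGE, crosslinked (top) and without crosslinking (bottom); filled points are replicate 1 and open points replicate 2. The highest SNHG1 peak is at 257 RPM with and 243 without crosslinking, while NCL has 52 peaks up to 374 RPM with it and 138 peaks up to 414 RPM without.

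Other settings are given as values with no test. With RecJ the RBFOX2 libraries held 2.01% and 1.68% of read numbers in hosts, beside 1.74% and 1.54% without it, and 62.5% ± 4.04 (SD, n = 2) narrow host peaks beside 66.3% ± 0.301. With RBFOX2 from 10000 cells at 0.001 U of RNase, hosts held 0.409% ± 0.0402 of read numbers and 43.3% ± 8.51 of host peaks were narrow, and from 1000 cells at 0.0001 U 0.487% ± 0.110 and 26.7% ± 2.88. GAS5 was at 415 and 645 RPM from 10000 cells and NCL at 1476 and 1907, so NCL lay above GAS5 there and below it at 50000 cells with PAGE (992 and 591 against 1844 and 1835). Cell number and RNase amount changed together in these libraries, which belong to the same accession run as those without crosslinking.

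With hnRNPc without PAGE, hosts held 0.203% ± 0.0177 of read numbers in libraries titled 5k and 0.251% ± 0.00744 in those titled 500, beside 0.194% ± 0.00223 at 50k. The labels give 50000 cells for all of these. At 0.025 U of RNase with PAGE, 29.0% ± 2.27 of host peaks were narrow with hnRNPA1 beside 23.9% ± 4.63 at 0.005 U. The 8 libraries from other gel regions of the hnRNPc pulldown listed 0 to 9 host peaks each, in lists of as few as 303 peaks.

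Across the 16 groups of the 32 libraries, the mean host level was most alike to that of 2 genes outside the set, ENSG00000109971 (Pearson r = 0.972) and ENSG00000179091 (r = 0.952). Of 15386 genes compared, 65 had an r above 0.9. These points share libraries and list lengths, so r is a description. The symbols of these identifiers are not paired with them in the tables used here. For the same reason other hosts and snoRNP protein genes were not analysed here.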

How the data were processed

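TLC-CLIP peak lists of 68 libraries were used as the authors deposited them. Each list gives a position (hg19, per the submitters' processing notes), a strand, a name with the Ensembl identifier and a number, and a p-value per peak, which the authors' peak caller assigned and which was deposited as is; per the file names that caller was CLIPper. The submitters' processing notes also name bcl2fastq, STAR 2.7.3a and UMI-tools 1.0.1, without their order or settings. The largest deposited p-value of a host peak was 0.00644, and read depth is unknown because only listed peaks can be counted. Per the labels, the proteins were immunoprecipitated from HEK293T cells.

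Peaks were assigned to a host by identifier and summed per gene and library (Python 3.11.15, pandas 2.3.3, numpy 2.4.6). Log2(RPM + 1) of the 15396 genes with a peak in at least 8 of 32 libraries was fitted with limma 3.58.1 (R 4.3.3; 16 group means, eBayes with trend, Benjamini-Hochberg adjustment over all genes). Shares and narrow percents (at most 30 nt) were compared by exact permutation of libraries, two-sided within each protein, or over proteins by the between-protein sum of squares. The fit was tested first on simulated data for the PAGE omission contrast, with 100 changed genes per size. It recovered 12% of them at a log2 change of 1 and 54% at a log2 change of 2.

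The named sites were those on top for at least 3 proteins and the top sites of hosts described in depth, and the 2 genes most alike in pattern were named. Alternatives were the pseudocount, the filter, the normalization, the p-value and width limits, a replicate block, leaving out each library or NCL, and joining peaks less than 30 nt apart, which was chosen after seeing the data for the gene-level fits. Members and lists were chosen with earlier results of these data known. Replicate numbers did not pair libraries. RefSeq (GRCh38.p14) gave snoRNA names and lengths and the start windows, and no coordinate of it was used.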

Additional observations from a re-analysis of the deposited data

Results flagged for a closer look

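The share of peaks in hosts and the narrow percent went opposite ways in single proteins, and these differences were not tested. When PAGE was omitted, the log2 share was 0.49 higher in RBFOX2 and −2.47 in hnRNPc, 2.96 apart. When crosslinking was omitted with PAGE, it was 2.99 in hnRNPI and −2.03 in hnRNPc, 5.02 apart. Both rest on the hnRNPc_50k_lowRNase group, whose replicate 1 listed 3268 peaks. The narrow percent without crosslinking was 17.0 points higher in hnRNPc and −12.5 in RBFOX2 with PAGE, 29.4 apart. Without PAGE it was 18.4 in hnRNPA1 and −6.30 in RBFOX2, 24.7 apart.

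The log2 ratio of narrow over wide read numbers also took both signs, again untested. It was 0.94 in RBFOX2 and −0.74 in hnRNPc without PAGE, 1.68 apart, and 0.65 in RBFOX2 and −0.85 in hnRNPA1 with PAGE, 1.51 apart. Without crosslinking it was 0.63 in hnRNPA1 and −0.88 in hnRNPI with PAGE, 1.51 apart, and 0.48 in hnRNPI and −0.17 in RBFOX2 without PAGE, 0.65 apart.

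Effects on single hosts differed between proteins by the limma interaction test. Of all genes, 5.13% passed that test for PAGE omission. For the omission of crosslinking 62.9% passed with PAGE and 20.0% without PAGE. For PAGE omission, the highest and lowest protein lay 3.99 apart on the log2 scale for GAS5 (adjusted p = 0.00904), 2.47 for SNHG1 (0.00799) and 2.72 for ZFAS1 (0.0268). For the omission of crosslinking with PAGE, they lay 6.05 apart for GAS5 (adjusted p = 2.47e-05), 4.86 for SNHG3 (5.08e-05), 4.86 for SNHG6 (0.00226), 3.86 for SNHG12 (0.0370) and 3.17 for ZFAS1 (0.00139). Without PAGE they lay 3.26 apart for GAS5 (adjusted p = 0.0169), 2.7 for SNHG1 (0.00264), 3.68 for SNHG3 (0.00159) and 4.24 for SNHG6 (0.0149). For PAGE omission the lowest protein was hnRNPc in GAS5 and ZFAS1. For crosslinking with PAGE it was hnRNPc in GAS5, SNHG3, SNHG6 and ZFAS1. The crosslinked hnRNPc group with PAGE holds the list of 3268 peaks.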

How the results depend on the processing

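Of 483 values under alternatives, 415 kept their direction and side of the threshold (unadjusted p of 0.05 for the exact tests, a factor of 1.5 for counts), and the cause of the changes was not tested. A single value changed sign: without hnRNPc_50k_lowRNase replicate 1 the share difference for PAGE omission was 0.058 in place of −0.40, neither past the threshold. With joined peaks, the share of peaks was −0.81 for PAGE omission (exact permutation p = 0.0262) and ranged over 3.04 between proteins with PAGE. The narrow percent was then 1.11 points higher for PAGE omission (exact permutation p = 0.747) and ranged over 11.4 points between proteins without PAGE and 14.0 with it, and the narrow-to-wide log2 ratio without PAGE was −1.91. With deposited p-values below 1e-05 the share range with PAGE was 3.42. Without NCL the narrow percent was 7.59 for PAGE omission and 43.8 between proteins with PAGE. With a limit of 20 nt the latter was 38.3 and the ratio without PAGE −0.42, and with 40 nt the crosslinking difference without PAGE was 9.29 and the ratio with PAGE −0.61. Under the replicate block the narrow differences of 8.73 and 48.1 points had exact permutation p of 0.0625 and 0.0833, and no other result crossed the threshold; the numbers did not pair libraries (median r −0.00181).

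Counts of hosts called by limma moved as follows. A pseudocount of 0.1 gave 1 for hnRNPc, and one of 10 gave 2 for PAGE omission, 5 for crosslinking without PAGE, 5 for hnRNPA1, 5 for hnRNPc and 7 for hnRNPI. Quantile normalization gave 2, 7, 5 and 6 for the first 4 of these. PAGE omission had 1 with a filter of at least 1 library and 1 without a variance trend.

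Leaving out each library gave share differences of −0.86 to 0.06 for PAGE omission, 0.72 to 1.65 for crosslinking with PAGE and 1.20 to 1.43 without, and share ranges of 1.42 to 4.83 between proteins with PAGE and 1.54 to 1.75 without. Narrow differences were 7.29 to 10.2 for PAGE omission, 5.59 to 8.48 and 5.45 to 8.03 for crosslinking with and without PAGE, and ranges 37.5 to 46.1 and 43.6 to 53.0 between proteins. Counts were 0 to 8 for PAGE omission, 5 to 8 and 1 to 7 for crosslinking with and without PAGE, 2 to 5 for hnRNPA1, 1 to 9 for hnRNPc, 2 to 8 for hnRNPI and 7 to 9 for RBFOX2. A group left with 1 library was assumed to vary like the others. Depth limits all of this: a host without a listed peak is not shown to be unbound.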

Other observations

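Some host values belong to no comparison above. ZFAS1 had a different top site for each protein without PAGE: chr20:47902178-47902228 with hnRNPI (555 and 418 reads), chr20:47895476-47895528 with RBFOX2 (908 and 861), chr20:47900222-47900303 with hnRNPA1 (363 and 309) and chr20:47898778-47898805 with hnRNPc (223 and 247). In SNHG3, RBFOX2 and hnRNPI shared chr1:28835070-28835259 (3027 and 3086, and 534 and 212 reads), and the hnRNPc top site was chr1:28835404-28835543 (611 and 685). In EPB41L4A-AS1, RBFOX2 and hnRNPI shared chr5:111497184-111497307 (163 and 160, and 49 and 34 reads).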
